A study of Mus musculus with 18 samples.

Results

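The miR-200 family was followed through the development of solar ultraviolet radiation (UVR)-driven cutaneous squamous cell carcinoma (cuSCC) in Hairless mice. Its 8 members here were picked by name among the mature microRNA arms of the family, with earlier results of these data known: mmu-miR-200a-3p, mmu-miR-200a-5p, mmu-miR-200b-3p, mmu-miR-200b-5p, mmu-miR-200c-3p, mmu-miR-141-3p, mmu-miR-141-5p and mmu-miR-429-3p. They make up 8 of the 1251 entries of the small RNA sequencing table. All 8 were among the 293 microRNAs that were detected in at least 6 of the 18 libraries and so entered the tests. The arms of the family left out, miR-200c-5p and miR-429-5p, were detected in 1 and 0 of the 18 libraries.

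Small RNA was sequenced from chronically UVR-exposed non-lesional skin (CHR), papilloma (PAP) and cuSCC of 6 female SKH-1E Hairless littermates, numbered 2, 3, 7, 8, 9 and 10, so that each sample type had 6 libraries. The mice are outbred and lack a functional Hairless gene, and all 3 sample types of a mouse received the same course of solar-simulated UVR. CHR skin is therefore itself sun-damaged tissue, and unirradiated skin was not analysed here. The values are log2 ppm, the reads of a microRNA in 1000000 usable reads, after quantile normalization, which gives every library nearly the same set of values. An arm that was not detected stands at the lowest value, 3.32, or 10 ppm.

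The miR-200 family is a hallmark of epithelial cells. Its 3p arms bind the messenger RNAs of ZEB1 and ZEB2, transcription factors that repress E-cadherin, and the ZEB factors in turn repress the miR-200 genes, a loop known for its part in the epithelial to mesenchymal transition. The 5 hairpins lie in 2 clusters. MicroRNAs recognise their targets mainly through the seed, bases 2 to 8 of the mature strand, so that members with the same seed are grouped together.

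The mature sequences are shown because the family divides by its seed, and because members of 1 seed group differ at few bases. All 8 members matched an entry of RefSeq (GRCm38.p6). Written 5′ to 3′ with the seed in capitals, the 3p arms fell into a group of 3 with the seed AAUACUG and a group of 2 with AACACUG:
mmu-miR-200b-3p: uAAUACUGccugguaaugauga
mmu-miR-200c-3p: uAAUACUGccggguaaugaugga
mmu-miR-429-3p: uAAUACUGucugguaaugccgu
mmu-miR-200a-3p: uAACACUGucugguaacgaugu
mmu-miR-141-3p: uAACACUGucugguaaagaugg

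The 5p arms, from the opposite side of the hairpins, share other seeds. For these hairpins the 3p arm had the higher mean in each sample type here, though for miR-200a in PAP the 5p minus 3p log2 difference was only -0.08. Less is known of what the 5p arms bind:
mmu-miR-200a-5p: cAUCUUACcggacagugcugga
mmu-miR-200b-5p: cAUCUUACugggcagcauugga
mmu-miR-141-5p: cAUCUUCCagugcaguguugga

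Among the 1679 mature mouse microRNAs of the same reference, the seed AAUACUG was held by these 3 members alone and AACACUG by these 2 alone. Counted from 1 at the 5′ end, the seed groups of miR-200b-3p and miR-200a-3p are set apart by U4C. miR-200b-3p and miR-200c-3p differed at 2 of the 22 positions compared (U11G and A22G), and miR-200a-3p and miR-141-3p at 2 of 22 (C17A and U22G). How reads that match several of these sequences were divided is not given in the sources used here, and values of a single member are uncertain to that extent. On the linear scale the entries of a library added up to between 2.35 and 2.36 times the 1000000 ppm that shares of all reads would give, and levels in ppm are therefore given as a scale and not as shares.

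On GRCm38.p6, Mir200b (chromosome 4, 156055681 to 156055750), Mir200a (156054896 to 156054985) and Mir429 (156053905 to 156053987) lie on the minus strand within 1846 bases, inside the annotated bounds of the protein-coding gene Ttll10 and of the non-coding transcript Gm13648, where Mir429 overlaps an exon of Gm13648. Mir200c (chromosome 6, 124718322 to 124718390) and Mir141 (124717914 to 124717985) lie on the minus strand within 477 bases, inside the bounds of the antisense transcript Gm15884, where Mir141 also overlaps an exon of Gm29008. The seed groups cross the clusters, since miR-200c-3p shares its seed with the chromosome 4 members miR-200b-3p and miR-429-3p, and miR-141-3p shares its seed with miR-200a-3p.

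The libraries differed in how much they detected and in their levels of microRNAs listed for other cell types. Between 163 and 281 entries were detected in PAP, 200 and 328 in CHR and 236 and 365 in cuSCC, while the lowest detected value reached 6.83 in PAP, 5.77 in CHR and 4.50 in cuSCC. The cuSCC library of mouse 10 stood apart from the other cuSCC libraries. Its summed level of 10 fibroblast and smooth muscle microRNAs was 6595 ppm against 24351 to 53173 ppm in the other 5, and its skeletal muscle sum was 35.7 ppm against 12065 to 19350 ppm. In the same library 7 of the 8 miR-200 members, all but miR-200b-3p, had their highest cuSCC value, and results without it are given where they differ. In bulk tissue, fewer cells of a type and less RNA per cell cannot be told apart.

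miR-200b-3p and miR-200c-3p were the abundant members in all 3 sample types. In CHR, miR-200b-3p had a log2 level of 11.29 ± 0.73 (SD, n = 6) and miR-200c-3p of 10.34 ± 0.44, which placed them at ranks 46 to 80 and 65 to 84 among the entries of a library. miR-429-3p (7.79 ± 0.76) and miR-141-3p (7.53 ± 0.72) followed and did not differ beyond their spread. The 5p arms and miR-200a-3p were lower, with mean CHR levels from 3.61 for miR-141-5p to 6.39 for miR-200b-5p. Together miR-200b-3p and miR-200c-3p gave between 78.7 and 91.7% of the summed family level in CHR, 66.8 and 87.3% in PAP, and 67.8 and 87.8% in cuSCC. The family's remaining 2 arms were close to absent from the table, as miR-200c-5p was detected only in the CHR library of mouse 10 (3.42) and miR-429-5p in 0 of the 18 libraries. With read depths of single libraries unknown, these are statements on the table's lower limit.

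**Figure D1:**
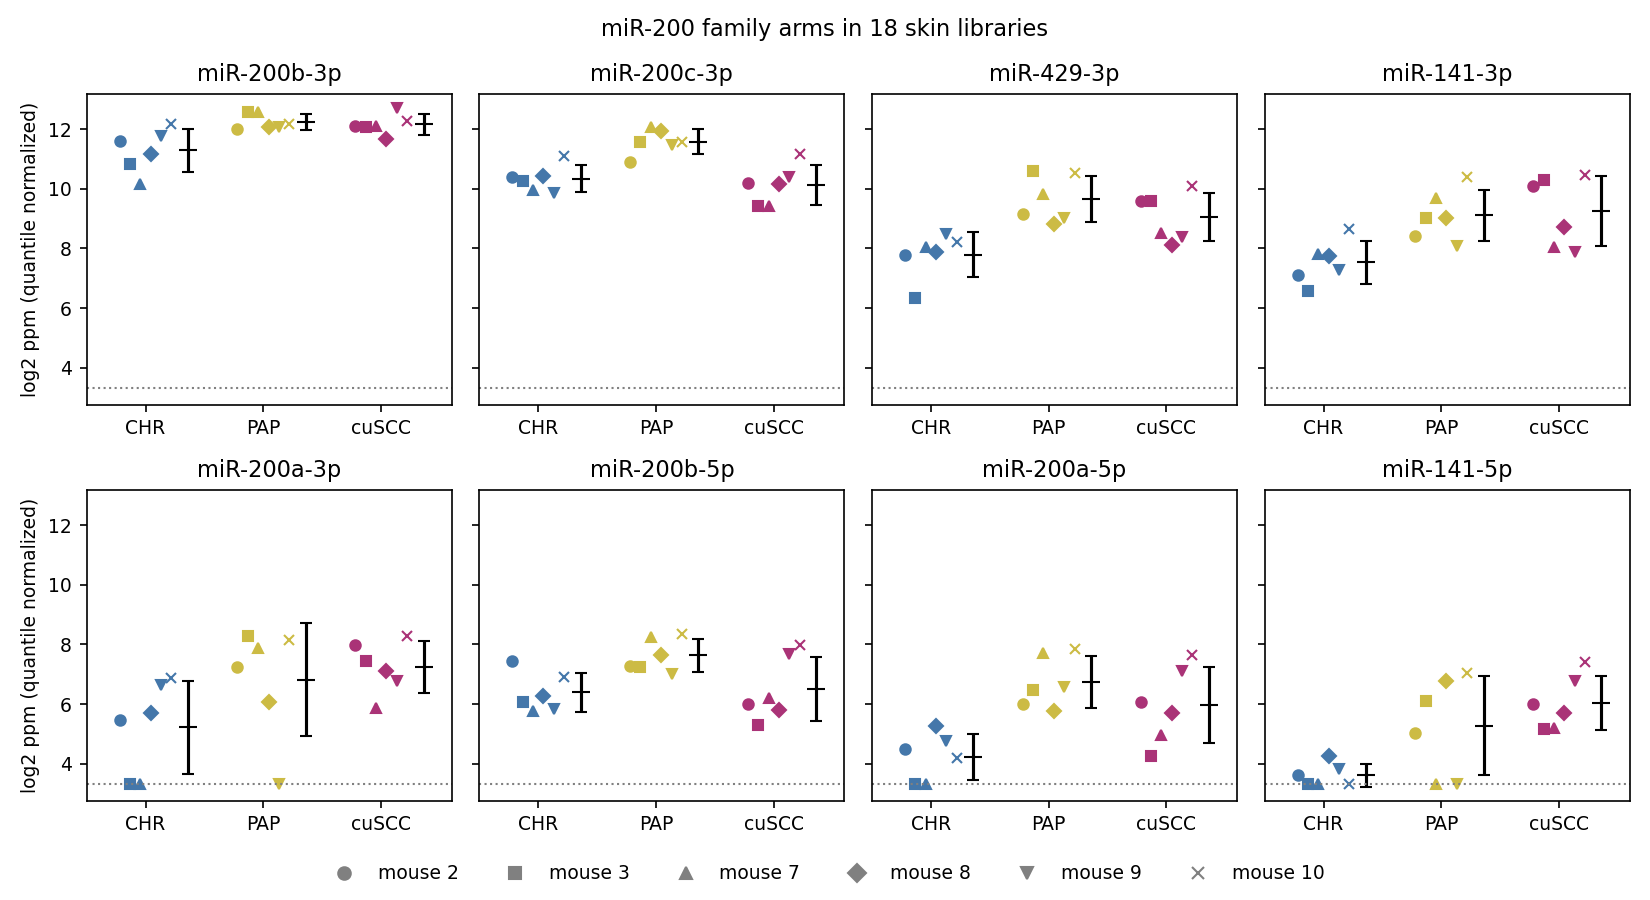
Level of each miR-200 family arm (vertical axis, log2 ppm, quantile normalized) in CHR, PAP and cuSCC; each marker is 1 library, with its shape giving the mouse, bars give mean ± SD (n = 6) and the dotted line is the lowest value of the table, 3.32. For miR-200c-3p the cuSCC values (9.42 to 11.18) span the CHR range (9.88 to 11.10), and PAP values are higher (10.89 to 12.06).

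The comparison of PAP with CHR asks what distinguishes the first lesion from the sun-damaged skin around it. All 8 members had higher means in PAP, and 6 of them rose at an adjusted p under 0.05 (limma, adjusted over all 293 microRNAs): miR-200a-5p, miR-429-3p, miR-200c-3p, miR-141-3p, miR-200b-5p and miR-200b-3p. None fell. Without mouse 3, and without mouse 7, 3 members passed. The median log2 difference over the 8 was 1.59, whereas over all 293 microRNAs it was -0.23, with 41 called higher (14.0%) and 54 called lower (18.4%). The summed level of the family was 2677 to 7822 ppm in CHR (median 4730) and 7321 to 12910 ppm in PAP (median 10552), so that only the CHR library of mouse 10 reached the PAP range.

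Among the members with the seed AAUACUG, miR-429-3p lay between 6.34 and 8.49 in CHR (median 7.96) and between 8.82 and 10.60 in PAP (median 9.50). The groups did not overlap and PAP was the higher sample in 6 of 6 mice. The log2 difference was 1.87 (SE 0.43, 3.66-fold), with an adjusted p of 0.00575 (limma), and it passed the threshold in all 15 alternative analyses.

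miR-200c-3p ran from 9.88 to 11.10 in CHR (median 10.34) and from 10.89 to 12.06 in PAP (median 11.56). It was higher in the papilloma of every mouse, and 5 of the 6 papillomas lay above every CHR library. Its log2 difference of 1.24 (SE 0.28, 2.36-fold; limma adjusted p = 0.00516) also passed in all 15 alternatives.

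miR-200b-3p, the most abundant member, had the smallest difference. It spanned 10.14 to 12.19 in CHR (median 11.40) and only 12.00 to 12.58 in PAP (median 12.12). The highest CHR library, that of mouse 10, had the same value as the papilloma of that mouse, and PAP was higher in the other 5 mice. The log2 difference of 0.96 (SE 0.33, 1.95-fold) had a limma adjusted p of 0.0433. With the mouse as a replicate block the adjusted p was 0.105, and it lay between 0.0554 and 0.164 after leaving out mouse 2, 3, 7, 8 or 9.

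Of the members with the seed AACACUG, miR-141-3p rose from 6.59 to 8.67 in CHR (median 7.50) to 8.07 to 10.41 in PAP (median 9.03), in 6 of 6 mice. Its log2 difference was 1.58 (SE 0.44; limma adjusted p = 0.0181), and the adjusted p was 0.0633 without mouse 3 and 0.0545 without mouse 7. miR-200a-3p was undetected in 2 CHR libraries and in the papilloma of mouse 9, and otherwise reached 6.87 in CHR and 8.27 in PAP. Its difference of 1.60 (SE 0.91; limma adjusted p = 0.204) was not called. It was 0.93 without mouse 3 (limma adjusted p = 0.495), 1.01 without mouse 7 (limma adjusted p = 0.484), and 2.58 without mouse 9, where alone among the 15 alternatives it passed (limma adjusted p = 0.0247).

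The 5p arms also had higher means in PAP, from low levels. miR-200a-5p was undetected in 2 CHR libraries, did not exceed 5.25 in CHR (median 4.34), and lay between 5.76 and 7.85 in PAP (median 6.54). The groups did not overlap with undetected entries at the lowest value, 3.32. In the CHR library of mouse 7, where the arm was undetected, the lowest detected value of any entry was 5.77. That is just above the PAP minimum, so a separation from that library is not shown. The log2 difference of miR-200a-5p, 2.51 (SE 0.46, 5.71-fold; limma adjusted p = 0.00109), was the largest of the family and passed in 14 of 15 alternatives. With a lower limit of 100 ppm applied to every value it was 0.38 (adjusted p = 0.245). All CHR values of this arm lie under that level, as do all PAP values but those of mice 7 and 10.

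miR-200b-5p rose from 5.77 to 7.46 (median 6.18) to 6.99 to 8.36 (median 7.46), in 5 of 6 mice, by a log2 difference of 1.24 (SE 0.36, 2.36-fold; limma adjusted p = 0.0231). Its adjusted p rose above 0.05 when mouse 3, 7 or 8 was left out, up to 0.0871. miR-141-5p was detected in 3 CHR and 4 PAP libraries, at up to 4.26 and 7.05. Its difference of 1.65 (SE 0.64; limma adjusted p = 0.0690) was not called, and it passed in 3 of 15 alternatives.

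The 6 CHR libraries serve in both comparisons with CHR, which are therefore not independent of each other. In cuSCC against CHR, 5 of the 8 members rose (limma adjusted p under 0.05): miR-141-5p, miR-200a-3p, miR-141-3p, miR-200a-5p and miR-429-3p. None fell, and miR-200c-3p alone had a lower mean than in CHR. Across all 293 microRNAs 59 were called higher (20.1%) and 65 lower (22.2%), with a median log2 difference of 0.11 against 1.48 over the 8 members. The summed family level in cuSCC was 5377 to 10710 ppm (median 7589). Without mouse 2 the test called 1 member, without mouse 3 it called 2, and without the cuSCC library of mouse 10 it called 4.

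Both 3p arms with the seed AACACUG rose in cuSCC. miR-141-3p lay between 7.86 and 10.48 (median 9.40) and exceeded CHR in 6 of 6 mice, with a log2 difference of 1.72 (SE 0.51, 3.29-fold; limma adjusted p = 0.0165). miR-200a-3p was detected in all 6 cuSCC libraries, from 5.87 to 8.27 (median 7.27), and was higher than in CHR in 6 of 6 mice by a log2 difference of 2.02 (SE 0.64, 4.04-fold; limma adjusted p = 0.0227). miR-141-3p passed in 14 and miR-200a-3p in 11 of 16 alternatives. Both calls were lost when mouse 2 or mouse 3 was left out, with an adjusted p of up to 0.0889 for miR-141-3p and 0.0903 for miR-200a-3p.

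miR-141-5p was detected in every cuSCC library, at 5.16 to 7.40 (median 5.85). The CHR range of 3.32 to 4.26 lay below this, with undetected entries at 3.32. In the CHR library of mouse 7, where the arm was undetected, the lowest detected value of any entry was 5.77. That is above the cuSCC minimum, so a separation from that library is not shown. The log2 difference of miR-141-5p, 2.43 (SE 0.39, 5.38-fold; limma adjusted p = 0.000295), was the largest of the family in this comparison. It passed in 15 of 16 alternatives, the exception again being the 100 ppm lower limit (difference 0.15, adjusted p = 0.399). miR-200a-5p lay between 4.26 and 7.66 (median 5.87) and was 1.74 higher on the log2 scale (SE 0.55, 3.33-fold; limma adjusted p = 0.0220). That value was 1.13 (adjusted p = 0.0869) with undetected entries given the smallest value detected in that library, and 0.25 (adjusted p = 0.279) with the 100 ppm lower limit. The call was also lost without mouse 2 or mouse 10 and in the exact permutation test (adjusted p = 0.0551).

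The 3 members with the seed AAUACUG did not share a call. miR-429-3p lay between 8.11 and 10.09 in cuSCC (median 9.05), above CHR in 5 of 6 mice, with a log2 difference of 1.25 (SE 0.43, 2.38-fold; limma adjusted p = 0.0320). It passed in 10 of 16 alternatives, and the adjusted p was 0.0535 with the mouse as a replicate block and 0.0557 without the cuSCC library of mouse 10. miR-200b-3p, at 11.67 to 12.72 (median 12.12), exceeded CHR in 6 of 6 mice by a mean of 0.88 (SE 0.35) that missed the threshold (limma adjusted p = 0.0545). It passed in 3 of 16 alternatives. With single mice left out the difference ran from 0.65 to 1.03 and the adjusted p from 0.0308 (without mouse 10) to 0.150 (without mouse 7).

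miR-200c-3p lay between 9.42 and 11.18 in cuSCC (median 10.17), across the CHR range, and was above CHR in 2 of 6 mice. The log2 difference was -0.21 (95% interval -0.95 to 0.52; limma adjusted p = 0.614). miR-200b-5p, at 5.31 to 7.99 (median 6.11), was above CHR in 3 of 6 mice, with a difference of 0.11 (95% interval -0.91 to 1.14; limma adjusted p = 0.870).

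**Figure D2:**
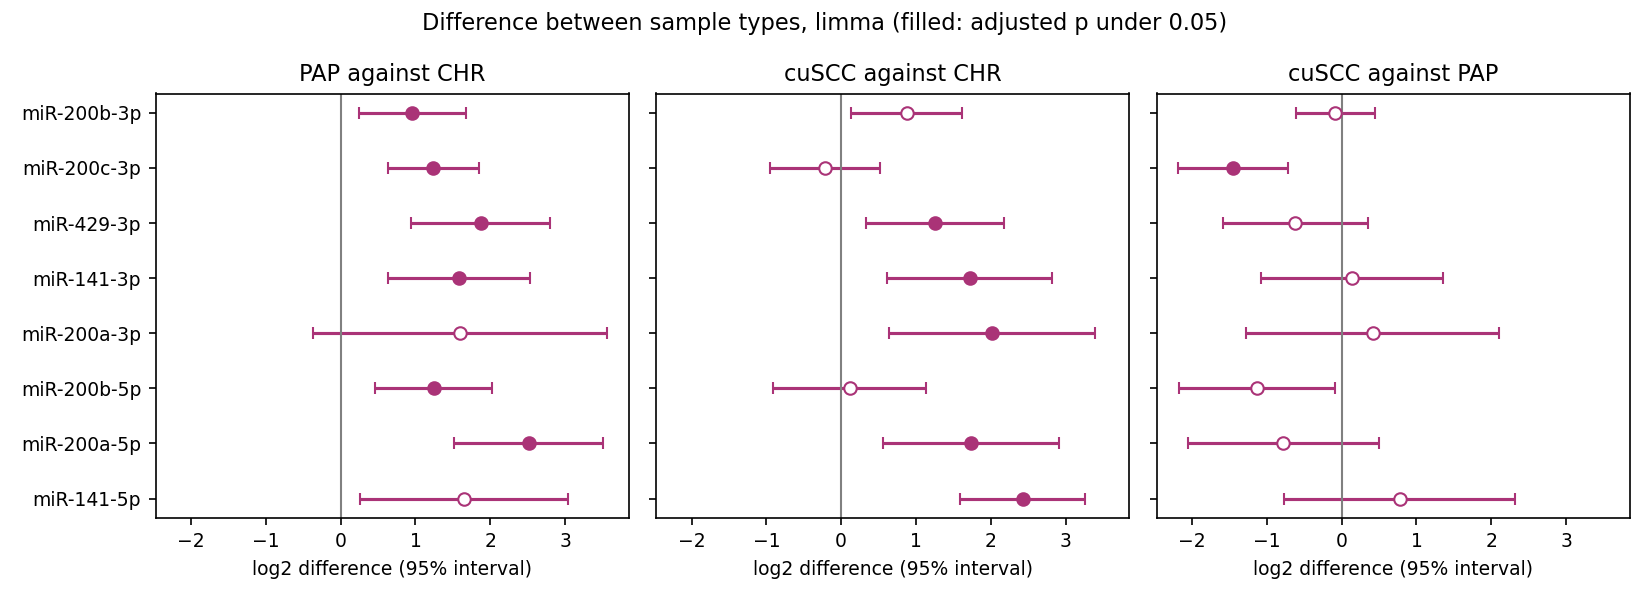
Difference of each miR-200 family arm between sample types (horizontal axis, log2) with its 95% interval, from limma fits of 6 against 6 libraries; filled points passed an adjusted p under 0.05 over all 293 microRNAs. All 8 differences lie above 0 in PAP against CHR (0.96 to 2.51), while miR-200c-3p lies at -0.21 in cuSCC against CHR and at -1.45 in cuSCC against PAP.

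The direct comparison of cuSCC with PAP, which asks what changes as the lesion becomes invasive, called 1 member. miR-200c-3p fell by 1.45 on the log2 scale (SE 0.34, 2.74-fold lower; limma adjusted p = 0.0319). It was below the papilloma in 6 of 6 mice, by 0.38 to 2.62, and 5 of the 6 cuSCC libraries lay below every papilloma, the exception being cuSCC of mouse 10. Over all 293 microRNAs 27 were called higher (9.22%) and 7 lower (2.39%), and the median difference was 0.21 against -0.35 for the 8 members.

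The call on miR-200c-3p sat close to the threshold that the whole table sets. The size of the fall varied little, from -1.67 to -1.22 when single mice were left out, but its adjusted p was 0.0549 with the mouse as a replicate block, 0.0945 in the exact permutation test, and between 0.0526 and 0.134 after leaving out mouse 2, 3, 7, 8 or 9. Without mouse 10 it was 0.00421.

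The other 7 members were not called between cuSCC and PAP. miR-200b-5p had a difference of -1.13 (SE 0.48; limma adjusted p = 0.149), and was lower in cuSCC in 5 of 6 mice. Without the cuSCC library of mouse 10, where it stood at its cuSCC maximum of 7.99, the difference was -1.43 and passed (adjusted p = 0.0408). For miR-200b-3p the difference was -0.09, with a 95% interval of -0.61 to 0.44 (limma adjusted p = 0.838). For miR-141-3p it was 0.14 with a wide interval of -1.08 to 1.35 (limma adjusted p = 0.863). The remaining 4 ranged from -0.78 for miR-200a-5p to 0.77 for miR-141-5p.

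A single factor applied to a whole library would leave the differences between its members unchanged. Quantile normalization sets values by rank and is not such a factor, so these differences still depend on it. They were not tested, because the pairs were picked with the values known. miR-200b-3p exceeded miR-200c-3p by 0.94 ± 0.60 in CHR (SD, n = 6), by 0.66 ± 0.36 in PAP and by 2.03 ± 0.64 in cuSCC. The gap lay between 1.09 and 2.68 in cuSCC (median 2.12), wider than in the PAP and the CHR of the same animal in 6 of 6 mice. Only the cuSCC library of mouse 10, at 1.09, fell within the PAP range of 0.12 to 1.12. These members share a seed and lie in different clusters.

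miR-141-3p and miR-200c-3p are neighbours in the chromosome 6 cluster. miR-141-3p stood at -2.81 ± 0.57 relative to miR-200c-3p in CHR, at -2.47 ± 0.76 in PAP and at -0.88 ± 1.19 in cuSCC (log2 differences, n = 6). The cuSCC differences ran from -2.55 to 0.89 (median -1.04), and each was above that of the CHR and the PAP of the same mouse. In the cuSCC of mouse 3, miR-141-3p was the higher of the pair.

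**Figure D3:**
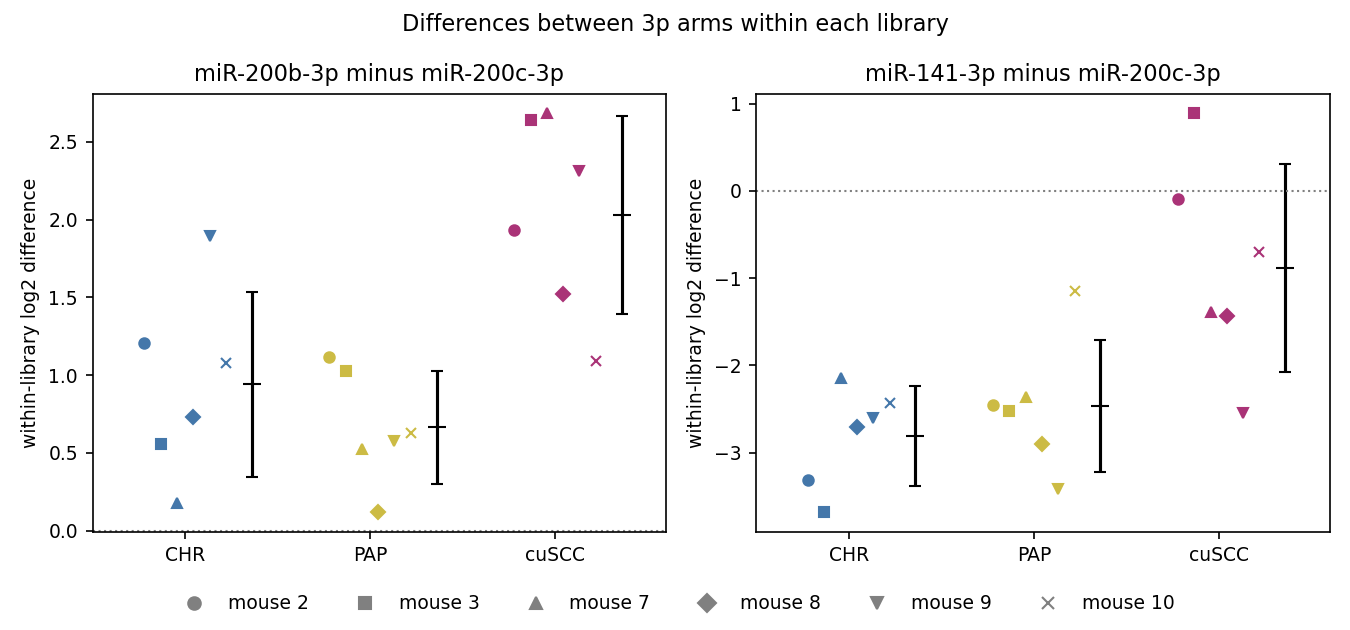
Differences between 3p arms within each library (vertical axis, log2): miR-200b-3p minus miR-200c-3p (left) and miR-141-3p minus miR-200c-3p (right) in CHR, PAP and cuSCC; markers are libraries by mouse and bars mean ± SD (n = 6). The mean of the left difference is 0.94 in CHR, 0.66 in PAP and 2.03 in cuSCC, and that of the right difference is -2.81, -2.47 and -0.88.

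The arms of a hairpin come from 1 transcript, and their difference can be followed for the 3 family hairpins with both arms among the microRNAs tested. The 5p minus 3p difference for miR-200b was -4.90 ± 0.64 in CHR (log2, SD, n = 6), with -4.62 ± 0.54 in PAP and -5.66 ± 0.87 in cuSCC. For miR-141 the differences were -3.92 ± 0.83, -3.85 ± 1.49 and -3.21 ± 1.36, and for miR-200a -1.0 ± 1.09, -0.08 ± 1.76 and -1.28 ± 1.20. Both arms were detected in 3 CHR, 4 PAP and 6 cuSCC libraries for miR-141 and in 4, 5 and 6 for miR-200a. The other differences include the lowest value and are not arm ratios. For miR-200a they are 0 in CHR of mice 3 and 7, with neither arm detected, and 3.26 in PAP of mouse 9, with the 3p arm undetected. None of the 3 hairpins was called in any comparison (limma over 67 hairpins, lowest adjusted p = 0.170). Only miR-200b in cuSCC against PAP, with a difference of -1.04, had an unadjusted limma p under 0.05 (0.0426, adjusted p = 0.238). Of all 67 hairpins, 7.46% were called in PAP against CHR, 41.8% in cuSCC against CHR and 4.48% in cuSCC against PAP. The miR-200b arm difference in cuSCC against CHR, -0.76 in the full set, was -1.04 with an adjusted p of 0.0458 without the cuSCC library of mouse 10.

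Other microRNAs of surface epithelium were counted as a comparison list of 10, all of them tested. In PAP against CHR 4 were called higher and 0 lower (median 0.49), in cuSCC against CHR 3 and 0 (median 0.56), and in cuSCC against PAP 1 and 0 (median -0.00). Of all 293 microRNAs, 14.0%, 20.1% and 9.22% were called higher in these comparisons and 18.4%, 22.2% and 2.39% lower. Their medians were -0.23, 0.11 and 0.21. miR-205-5p, a keratinocyte microRNA, was among the highest entries of the table, at means of 17.87 in CHR, 18.22 in PAP and 18.08 in cuSCC, and did not pass the test in PAP (0.35, limma adjusted p = 0.335) or cuSCC (0.21, 0.568) against CHR. The opposite arm of that hairpin, miR-205-3p, was less abundant and had the largest rise of the list in both comparisons with CHR. Its log2 difference was 2.19 for PAP (limma adjusted p = 0.000641) and 2.33 for cuSCC (limma adjusted p = 0.000985). miR-203-3p, which promotes keratinocyte differentiation, was not called, at means of 12.06 (CHR), 11.90 (PAP) and 12.56 (cuSCC). miR-182-5p, of the miR-183 cluster of sensory and epithelial tissues, was higher than in CHR both in PAP, by 1.76 (limma adjusted p = 0.000292), and in cuSCC, by 1.59 (limma adjusted p = 0.000747). Also called against CHR were miR-183-5p and miR-183-3p in PAP and miR-96-5p in cuSCC, all of that cluster. Means above CHR were seen for 6 of the 10 in PAP and 8 in cuSCC. The lowest differences were -1.24 for miR-184-3p in PAP (limma adjusted p = 0.0800) and -1.26 for miR-375-3p in cuSCC (limma adjusted p = 0.137).

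MicroRNAs of other cell types changed between the same libraries. Of 9 tested microRNAs of fibroblasts and smooth muscle, 5 were called lower and 0 higher in PAP against CHR (median -1.53). In cuSCC against CHR 1 was called lower (median 0.55), and in cuSCC against PAP 4 were called higher (median 1.98). The shares of all 293 microRNAs were 18.4%, 22.2% and 2.39% lower and 14.0%, 20.1% and 9.22% higher. miR-199a-3p and miR-199b-3p, both called in the first and last comparison, had identical means and differences. They are counted separately here and in the sums. The summed level over the list of 10 fibroblast and smooth muscle microRNAs was 21513 to 35647 ppm in CHR, 2221 to 18531 ppm in PAP and 6595 to 53173 ppm in cuSCC. The median sum was 26530 ppm in CHR, 9720 ppm in PAP and 43962 ppm in cuSCC. Against CHR, 6 members of the miR-200 family were called higher in PAP and 5 in cuSCC. The cuSCC library of mouse 10, at 6595 ppm, lay within the PAP range. In cuSCC without mouse 10 the sums were 24351 to 53173 ppm. The part of these shifts in the miR-200 values was not tested.

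Skeletal muscle microRNAs, 3 of 4 listed being tested, were called lower in PAP in 3 of 3. The untested miR-1a-3p was detected in 0 CHR, 0 PAP and 1 cuSCC library. The sum over the 4 listed was 44488 to 64661 ppm in CHR, 0 to 5550 ppm in PAP and 35.7 to 19350 ppm in cuSCC. The defining miR-206-3p and miR-133b-3p were undetected in 6 of 6 PAP libraries. Both endothelial microRNAs, miR-126-3p and miR-126-5p, were higher in cuSCC than in CHR and in PAP, with sums of 229 to 652, 185 to 513 and 612 to 2310 ppm in CHR, PAP and cuSCC. Leukocyte microRNAs, 3 of 5 being tested, summed to 4486 to 8848 ppm in CHR, 494 to 2321 ppm in PAP and 1760 to 4909 ppm in cuSCC. Of those not tested, miR-155-5p was undetected in all 18 libraries and miR-142-3p was detected in 2. The 3 leukocyte tests gave 0 higher and 1 lower in PAP against CHR, 1 and 1 in cuSCC against CHR, and 1 and 0 in cuSCC against PAP. Erythroid microRNAs, 2 of 4 being tested, summed to 106057 to 234918, 106382 to 309686 and 29841 to 239844 ppm, with miR-144-3p undetected throughout. The highest cuSCC sum was that of mouse 10, and the next was 62173 ppm. The sums were mostly miR-486-5p, with a CHR mean of 17.12 against 5.51 for miR-451a. Of these 2, 1 was higher in PAP than in CHR (miR-451a). In cuSCC against CHR 1 was higher (miR-451a) and 1 lower (miR-486-5p), and 1 was lower in cuSCC than in PAP (miR-486-5p). Of all 293 microRNAs, 14.0% were called higher and 18.4% lower in PAP against CHR. The shares were 20.1% and 22.2% in cuSCC against CHR, and 9.22% and 2.39% in cuSCC against PAP. How far the miR-200 values follow any shift in these lists was not tested.

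**Figure D4:**
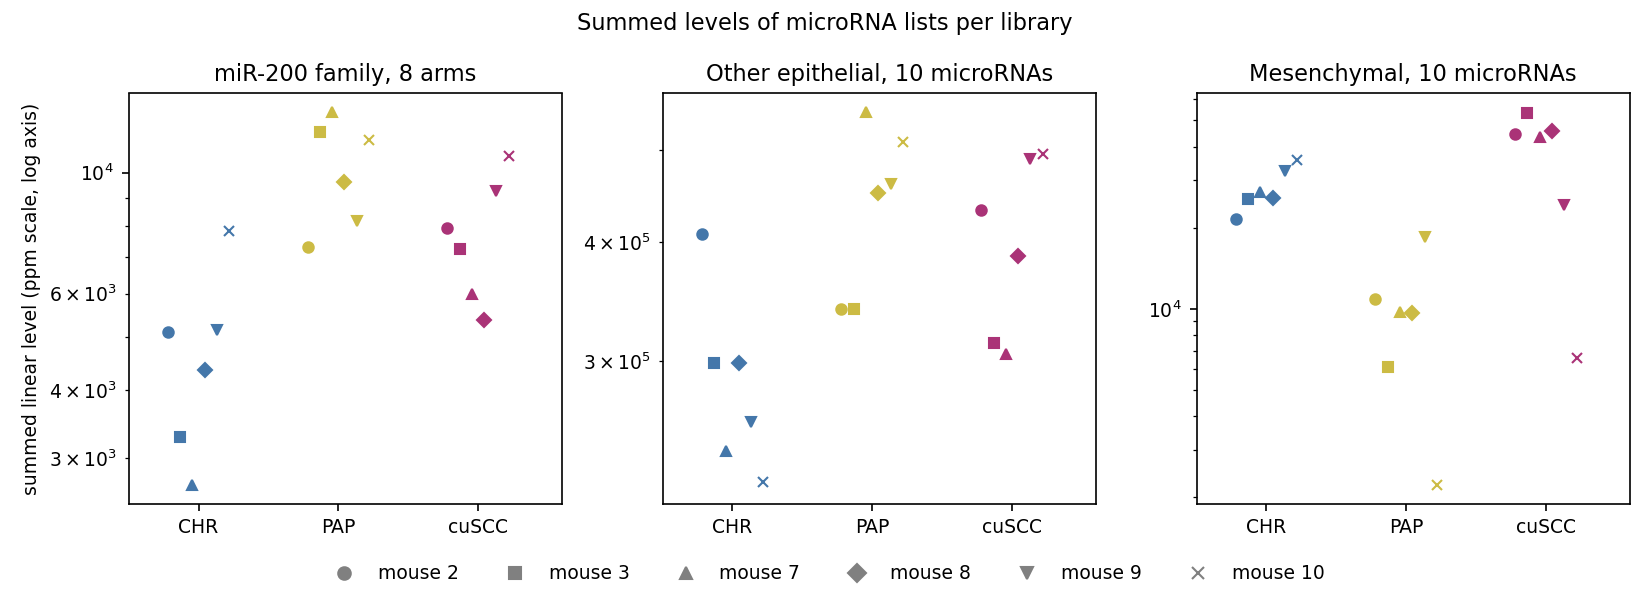
Summed linear level (vertical axis, ppm scale, log axis) of the miR-200 family, of 10 other epithelial microRNAs and of 10 fibroblast and smooth muscle microRNAs in each library, with undetected entries counted as 0 and marker shape giving the mouse. The family median is 4730 ppm in CHR, 10552 in PAP and 7589 in cuSCC, while the mesenchymal median is 26530, 9720 and 43962.

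The microRNAs whose levels tracked each cluster's most abundant member most closely were named as a description, over 18 libraries that share mice, sample types and a common normalization. For miR-200b-3p these were miR-138-5p (Pearson r = 0.807), miR-17-5p (0.776), miR-182-5p (0.763), miR-98-5p (0.742) and miR-451a (0.736). For the deviations from the sample type means the values were lower, from 0.408 for miR-451a to 0.578 for miR-138-5p. For miR-200c-3p they were let-7b-5p (0.728), miR-331-3p (0.711), miR-210-5p (0.703), miR-18a-3p (0.695) and miR-106b-3p (0.687), with 0.267 to 0.603 for the deviations. The lists have no microRNA in common. The companions were picked by r over all 18 libraries, to which the sample type means contribute. Like means therefore follow from that choice and are not a separate result. All 5 companions of miR-200b-3p had higher means in PAP and in cuSCC than in CHR, and all 5 companions of miR-200c-3p had their highest mean in PAP.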

How the data were processed

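Small RNA libraries from CHR, PAP and cuSCC of 6 mice were compared. The authors trimmed adapters, discarded short reads and reads ending in long homopolymers, aligned the remainder to miRBase using BLAST, and gave the abundance of a microRNA in ppm of usable reads. The deposited values are on the log2 scale, quantile normalized across libraries as the values show, with a lowest value of 3.32. The normalization step and the division of reads between similar microRNAs are not given in the sources used here, nor is the read depth of single libraries, so that no counting interval could be computed. The submitters' processing notes name mm10.

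Entries detected (over the lowest value) in 6 or more of the 18 libraries (293 of 1251) were fitted with limma 3.58.1 in R 4.3.3 on the log2 values, 6 against 6 libraries, two-sided, without a block, with Benjamini-Hochberg adjustment over all 293 and a threshold of 0.05. The 5p minus 3p difference was fitted likewise over 67 hairpins. A fold change is 2 to the power of the log2 difference. For arms with undetected values it depends on the value given to those entries. The fits were first tested on simulated data. Replicates are separate mice, and same-numbered samples come from the same mouse. Over the 293 microRNAs, same-mouse deviations from the sample type means had mean correlations of 0.0250 (PAP and CHR), -0.0676 (cuSCC and CHR) and 0.0582 (cuSCC and PAP).

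All 8 members were named, and microRNAs most like each cluster's most abundant 3p member were the 5 with the highest Pearson r. The members and the marker lists were chosen with earlier results of these data known. Alternatives were other filters, all 3 sample types in 1 fit, the mouse as a replicate block, median centring, an exact permutation test, other lower limits, and leaving out each mouse. Leaving out the cuSCC library of mouse 10 was added after seeing the data. Sequences and hairpin positions were taken from RefSeq (GRCm38.p6) and gene overlaps from the GENCODE annotation of the same assembly.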

Additional observations from a re-analysis of the deposited data

Results flagged for a closer look

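miR-429-3p in the CHR library of mouse 3 had a log2 level of 6.34, and the next lowest CHR value was 7.79. The gap was 0.674 of the range of the 6 CHR libraries, above the Dixon limit of 0.625. This was 1 flagged group among 24 groups of 6 libraries (8 members in 3 sample types), where chance gives about 1 in 20. Without mouse 3 the miR-429-3p difference was 1.39 between PAP and CHR (limma adjusted p = 0.0218) and 0.85 between cuSCC and CHR (limma adjusted p = 0.129).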

How the results depend on the processing

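Of 376 values of single members under alternatives, 320 kept their direction and side of the threshold, 38 lost and 8 gained a call, and 10 changed sign. Of 141 arm differences, 130 kept both, 2 gained a call and 9 changed sign. The causes were not tested. Read depth is unknown, and the lower limit of the table bears most on miR-141-5p, miR-200a-5p and miR-200a-3p. Median centring moved all differences by at most 0.0666 on the log2 scale and changed no sign among the members.

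The count of members called in PAP against CHR (6) ranged from 3 to 7 when each mouse was left out. In cuSCC against CHR (5) it ranged from 1 to 5, and was 3 without a filter and 3 with the 100 ppm lower limit. In cuSCC against PAP (1) it ranged from 0 to 1, was 0 with the mouse as a replicate block (2 members at an unadjusted p under 0.05 in limma), 0 in the exact permutation test (1 at an unadjusted p under 0.05), and 2 without the cuSCC library of mouse 10. The block, justified by the shared mouse, also ended the calls of miR-200b-3p in PAP against CHR and miR-429-3p in cuSCC against CHR, and changed no other member's call.

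Over all microRNAs, 95 were called in PAP against CHR (55 to 79 leaving out each mouse) and 124 in cuSCC against CHR (77 to 129, and 131 without the cuSCC library of mouse 10). The 34 called in cuSCC against PAP became 8 without a filter, 80 with undetected entries at the lowest detected value, 0 in the exact permutation test (75 at an unadjusted p under 0.05) and 1 to 59 leaving out each mouse, with the highest count without mouse 10.

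The 5 hairpins called in PAP against CHR became 3 under the filter of 9 libraries, 10 without a filter, 2 with the replicate block, 13 with undetected entries at the lowest detected value, 25 with the 100 ppm limit, and 3 to 7 leaving out each mouse. The 28 in cuSCC against CHR became 14 with all sample types in 1 fit and 16 to 29 leaving out each mouse. The 3 in cuSCC against PAP became 1 under the filter of 3 libraries, 0 in the exact permutation test (13 at an unadjusted p under 0.05), 12 with undetected entries at the lowest detected value, 8 with the 100 ppm limit, and 0 to 5 leaving out each mouse (without mouse 8, 0 in limma and 7 at an unadjusted p under 0.05).

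The values that changed sign had not passed the test. With the 100 ppm limit, the arm differences in PAP against CHR were -1.48 for miR-141 (limma adjusted p = 0.0111), -0.40 for miR-200a and -0.15 for miR-200b. That of miR-141 was -1.56 in cuSCC against CHR (limma adjusted p = 0.0149) and -0.077 in cuSCC against PAP, and miR-200a-3p was -0.10 in cuSCC against PAP. The limit replaced every CHR value of miR-141-5p. It also replaced all its PAP values but those of mice 8 and 10, and all its cuSCC values but those of mice 9 and 10. The miR-141 differences at this limit therefore mostly follow the 3p arm and are not arm ratios. With undetected entries at the lowest detected value, miR-141-5p was -0.15 and the miR-141 arm difference -0.29 in cuSCC against PAP. Leaving out each mouse, the miR-141 arm difference in PAP against CHR ran from -0.31 (without mouse 10) to 0.46, and the miR-200a arm difference in cuSCC against CHR from -0.78 to 0.30 (without mouse 3). miR-200b-5p in cuSCC against CHR ran from -0.23 (without mouse 9) to 0.42, and was -0.18 without the cuSCC library of mouse 10. In cuSCC against PAP, miR-141-3p ran from -0.17 (without mouse 2) to 0.49 and was -0.11 without the cuSCC library of mouse 10, miR-200b-3p ran from -0.23 to 0.0027 (without mouse 3), and miR-200a-3p from -0.19 (without mouse 9) to 0.90.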

Other observations

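Pairs of members were compared by the correlation of their deviations from the sample type means over the 18 libraries, which share mice and a common normalization. Pairs encoded in the same cluster (13 pairs) had values from 0.189 to 0.740 (median 0.400), and pairs encoded in different clusters (15 pairs) from 0.0932 to 0.760 (median 0.346). The ranges overlap over most of their length, and the difference between them was not tested.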
